A study of Homo sapiens with 12 samples.

Results

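The response of TUSC3 knockout cells to tunicamycin (TM) was described across all genes that had a feature of their own on the array. A549 is a human lung adenocarcinoma cell line. TUSC3 is a subunit of one form of the oligosaccharyltransferase (OST), the complex of the endoplasmic reticulum (ER) membrane that moves a preassembled glycan onto asparagines of entering proteins. RNA was measured on one-colour GeneChip Human Transcriptome Array 2.0 arrays, 6 of the 12 arrays of the series: 3 arrays of TUSC3 KO cells given TM (3 ug/ml, 16 h; KO TM) and 3 of TUSC3 KO cells given the vehicle DMSO (16 h; KO DMSO). The other 6 arrays, 3 of control A549 cells under TM (control TM) and 3 under DMSO (control DMSO) at the same dose and time, were used to set the KO response beside that of cells with TUSC3. All cells were grown in RPMI 1640 medium with fetal bovine serum. The KO cells were made with CRISPR and are 1 single-cell clone, so the effect of losing TUSC3 and the history of that clone cannot be told apart in any difference from the control cells. The labels do not say that the 3 arrays of a group came from separate cultures, and p-values measure the spread between these arrays, which may be technical.

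Of 70523 features, 23781 had 1 gene symbol in the platform annotation, which gave 22411 genes with the brightest feature taken where a gene had several. TUSC3 was checked first. Its log2 value was 5.51, 5.53 and 5.78 in KO TM cells, against 5.51, 5.5 and 5.57 in KO DMSO cells, and 6.9, 6.93 and 7.0 in control TM cells, against 7.16, 7.03 and 7.1 in control DMSO cells. All KO arrays lay below all control arrays, with a KO minus control difference of -1.34 under TM and -1.57 under DMSO (exact permutation test, two-sided, p = 0.1 for each, the smallest that 3 against 3 arrays allow). Within KO cells TUSC3 overlapped between TM and DMSO (0.08, adjusted p = 0.477). Correlations within groups were 0.996 to 0.999 over the 22411 genes, and those between KO TM and KO DMSO arrays were 0.988 to 0.990. KO TM arrays had a median SD of 0.0741 over genes, against 0.042 in KO DMSO arrays. Of 5 epithelial markers KRT8 (-0.23), KRT18 (-0.10) and KRT19 (-0.14) fell, CDH1 rose by 0.52 and EPCAM did not pass, with summed values of 48.96 to 49.04 in KO TM and 48.9 to 49.17 in KO DMSO arrays, and their part in the results was not tested. The alveolar markers SFTPB, SFTPC and NKX2-1 lay between 5.17 and 5.83 on every array, and none of them was called. Of 11 tested markers of blood, endothelium and fibroblasts, summed log2 values were 44.58 to 45.73 in KO TM and 44.98 to 46.02 in KO DMSO arrays. Among them CD14 fell (-0.34) and DCN rose by 0.41, with DCN below the median of all features in both KO groups, and the other 9 did not pass. The KO TM and KO DMSO arrays overlapped for DCN, and its call was lost in 9 of the alternatives (adjusted p 0.0508 to 0.317 in these). PTPRC, the leukocyte marker CD45, lay between 2.44 and 2.56 on every array.

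TM blocks DPAGT1, the enzyme that starts the dolichol-linked glycan, so newly made glycoproteins fold without their sugars. Unfolded proteins in the ER lumen are sensed by 3 membrane proteins, ATF6, IRE1 (gene ERN1) and PERK (gene EIF2AK3), which start the unfolded protein response (UPR). ATF6 is cut in the Golgi into a transcription factor for chaperones, IRE1 splices XBP1 mRNA, and PERK phosphorylates eIF2alpha, which slows translation and favours ATF4 and, through it, DDIT3 (CHOP). The response enlarges the folding, export and degradation capacity of the ER, and prolonged stress can lead to cell cycle arrest and death. The array measures the level of each mRNA and neither its splicing nor any protein.

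In TUSC3 KO cells TM raised 2806 genes (12.5% of those tested) and lowered 3338 genes (14.9%) at an adjusted p under 0.05 (limma, Benjamini-Hochberg), while 16267 genes did not pass. Most changes were small. The median log2 difference was 0.29 among the genes that rose and -0.27 among those that fell, and 122 genes rose and 118 fell by more than 2-fold. The median over all genes was -0.01, with a median standard error (SE) of 0.0521. Levels and differences below are log2 RMA values, and differences are TM minus DMSO. Each SE is from limma, with the spread of a gene estimated over all 12 arrays and drawn toward that of other genes. All counts of list members are to be read against the shares of 12.5% and 14.9%. These shares cover many dim genes. With the 6531 genes whose group means all lay below the median of all features left out, 2677 rose and 3394 fell of 15880. Most lists had a higher median level than all genes (5.82 in KO DMSO cells). The 19 tested housekeeping genes, with a median of 9.14 there, rose in 15.8% and fell in 57.9%. A difference is a lower bound where a group mean, but not both, was below 4.77, the median of all features, and is then also given against that level. Where both were below it, no bound is given. The KO TM and KO DMSO arrays did not overlap for 8113 genes (36.2%), and each statement of no overlap below is to be read against that share. For the 15 largest rises and falls, no overlap was a condition of being named.

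Genes of 9 lists, one of UPR sensors and transcription factors and the others for ER folding, transport, degradation, glycosylation and calcium, 235 tested genes in all, held 29 of the 122 genes that rose by more than 2-fold and none of those that fell. Genes of 2 lists for DNA replication and mitosis, 77 tested, held 31 of the 118 that fell by more than 2-fold and none of those that rose. The plot of calls by list shows the ER and amino acid lists at the higher end and the cell cycle lists at the lower end. The lists were chosen with earlier results of these data known, so all counts by list are a description and not a test.

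**Figure D1:**
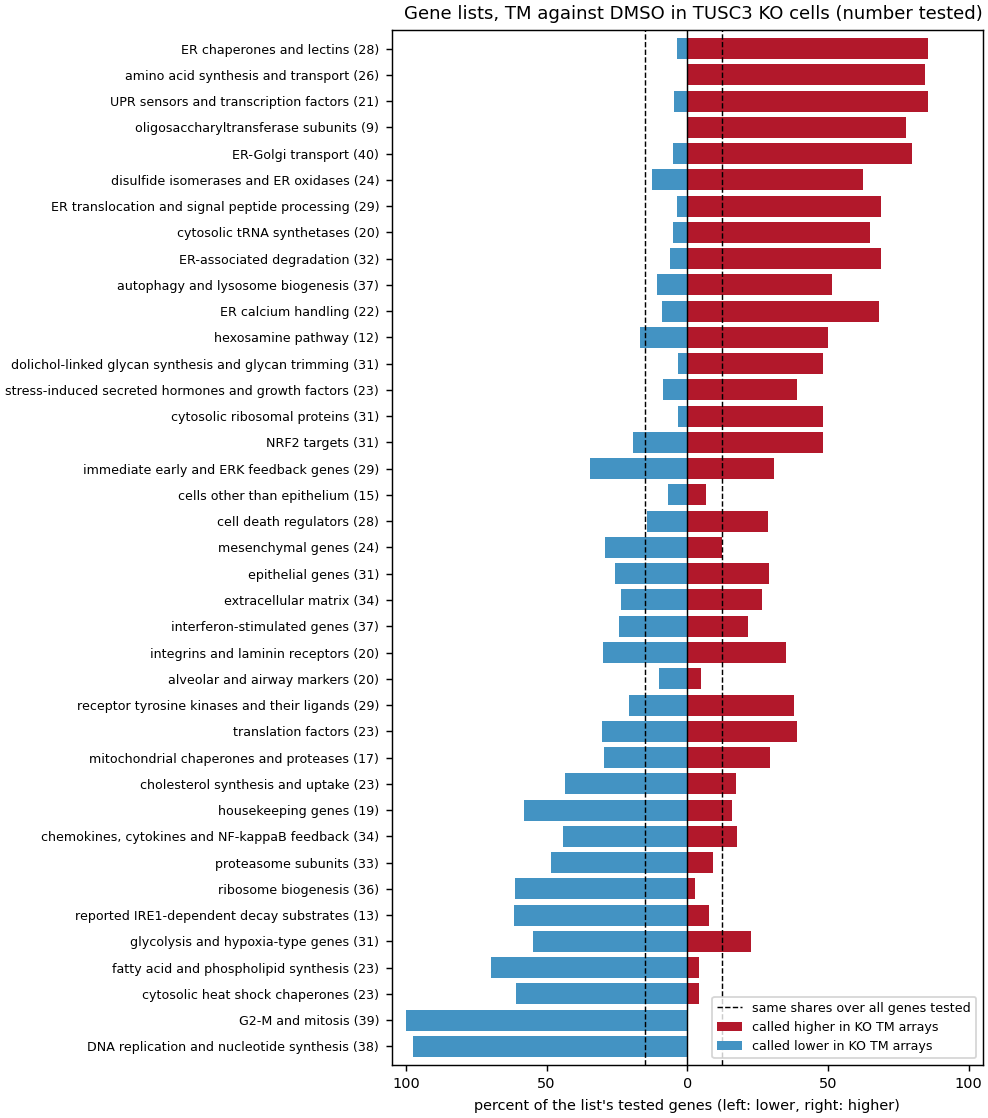
Share of each list's tested genes called higher (right, red) and lower (left, blue) in KO TM against KO DMSO arrays, in percent, ordered by the list's median difference, with the number tested in brackets. Dashed lines give the shares over all 22411 genes, 12.5% higher and 14.9% lower, and the lists run from 100% lower for G2-M genes to 85.7% higher for ER chaperones.

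The UPR sensors and transcription factors rose together. Of 21 tested genes 18 rose, 1 fell and 2 did not pass, with a median difference of 0.52. DDIT3, the CHOP transcription factor, had values of 7.07, 7.01 and 7.19 in KO TM cells, against 4.48, 4.61 and 4.57 in KO DMSO cells. The KO DMSO arrays lay below the median of all features, and the difference of 2.54 ± 0.063 (adjusted p = 2.54e-10) was at least 2.32 against that level. Among the 3 sensors, EIF2AK3 had values of 7.55, 7.42 and 7.6 in KO TM cells, against 6.52, 6.61 and 6.66 in KO DMSO cells, a difference of 0.92 ± 0.061 (adjusted p = 4.03e-07). ERN1 had values of 7.38, 7.43 and 7.5 in KO TM cells, against 6.5, 6.6 and 6.67 in KO DMSO cells, a difference of 0.85 ± 0.048 (adjusted p = 1.22e-07). ATF6 had values of 9.01, 8.99 and 9.1 in KO TM cells, against 8.29, 8.27 and 8.3 in KO DMSO cells, a difference of 0.74 ± 0.034 (adjusted p = 1.98e-08). No array of KO TM cells overlapped KO DMSO cells for any sensor, which also held for 36.2% of all genes. PPP1R15A, the phosphatase subunit that restores translation, rose by 1.14, and its constitutive relative PPP1R15B by 0.43. TRIB3, a pseudokinase target of CHOP, rose by 1.06, and the stress factor ATF3 by 0.91. ATF4, whose translation PERK signalling favours, rose by 0.34 ± 0.035 at the mRNA level, and its partner CEBPG by 0.78. ATF6 belongs to a family of membrane-bound factors cut by the Golgi proteases MBTPS1 and MBTPS2. In that family CREB3 rose by 0.61, CREB3L2 by 0.52 and ATF6B by 0.28, while the proteases rose by 0.14 and 0.28. NFE2L1, an ER-anchored factor for proteasome genes, rose by 0.87, and CEBPB by 0.24. CREB3L4 differed by 0.05 (adjusted p = 0.363) and CREB3L1 by -0.07 (adjusted p = 0.458). CREB3L3, a factor known from liver, fell (-0.21, adjusted p = 0.0241), a call lost without KO TM replicate 3 or without KO DMSO replicate 1 (adjusted p between 0.0827 and 0.216 over the alternatives that lost it).

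XBP1, the target of IRE1 splicing, showed the smallest called rise in this list after MBTPS1. Its values were 8.27, 8.22 and 8.18 in KO TM cells, against 7.99, 8.02 and 8.08 in KO DMSO cells. The arrays did not overlap, and the difference was 0.2 ± 0.052 (adjusted p = 0.0143). Without KO TM replicate 1 or without KO DMSO replicate 1 the adjusted p was 0.0586 to 0.0596. The value sums spliced and unspliced XBP1. Of 13 tested mRNAs reported as substrates of IRE1-dependent decay, in which the same nuclease cleaves ER-bound mRNAs, 8 fell and 1 rose, with a median of -0.16. BLOC1S1, the substrate known across many cell types, had values of 6.34, 6.4 and 6.28 in KO TM cells, against 6.94, 7.1 and 6.93 in KO DMSO cells, a difference of -0.65 ± 0.059 (adjusted p = 5.49e-06). The adhesion receptor BCAM fell (-0.71), as did IGFBP4 (-0.62), while FERMT2 rose by 0.19.

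**Figure D2:**
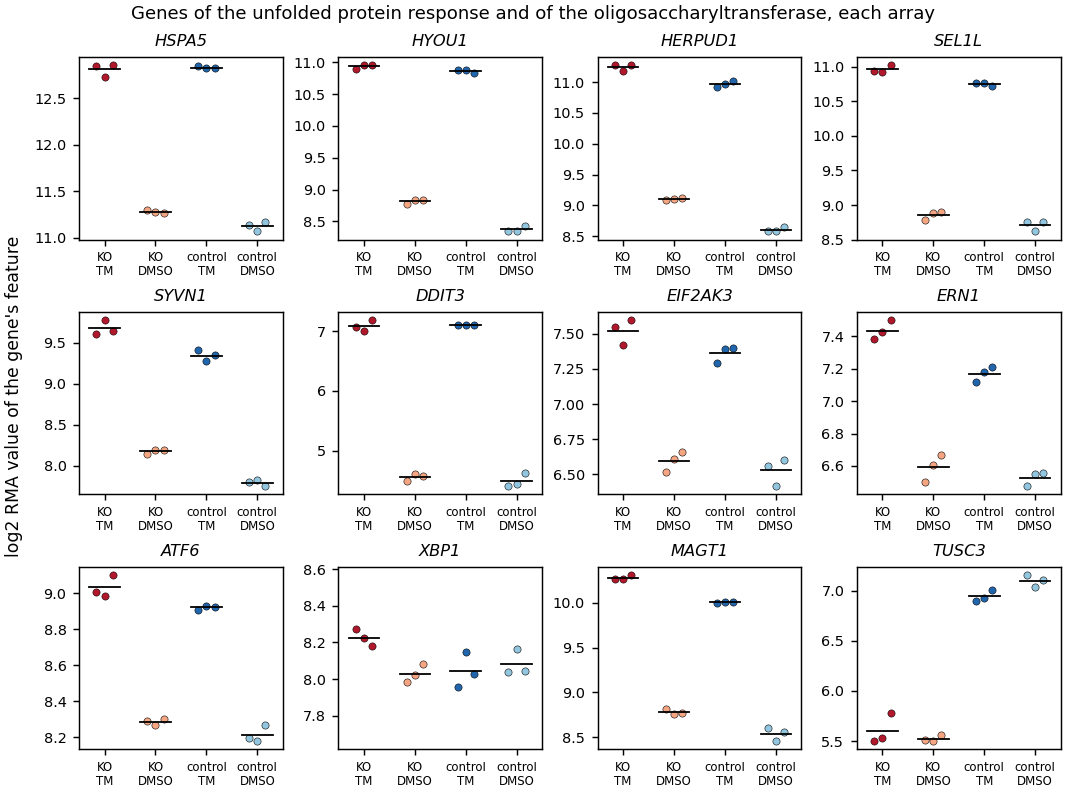
Log2 RMA values on each array (points) and group means (lines) of 12 genes, with KO TM, KO DMSO, control TM and control DMSO cells from left to right and a separate axis per gene that does not start at 0. KO TM arrays lie above KO DMSO arrays without overlap for every gene but TUSC3, and TUSC3 lies near 5.5 in both KO groups and near 7 in control cells.

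ER chaperones and the lectin cycle carried the clearest shift among the ER lists. Of 28 tested genes 24 rose, 1 fell and 3 did not pass, with a median of 0.77 and 9 genes past 2-fold. HSPA5, the lumenal Hsp70 chaperone also called BiP that holds the UPR sensors inactive, had values of 12.84, 12.73 and 12.85 in KO TM cells, against 11.3, 11.28 and 11.27 in KO DMSO cells. All 3 KO TM arrays were above all KO DMSO arrays, by 1.52 ± 0.033 (2.87-fold, adjusted p = 9.69e-11). HYOU1, its nucleotide exchange factor, had values of 10.9, 10.95 and 10.95 in KO TM cells, against 8.78, 8.83 and 8.83 in KO DMSO cells, a difference of 2.12 ± 0.031 (4.35-fold, adjusted p = 5.63e-12). The J-domain proteins that work with HSPA5 rose as well. DNAJC3 had values of 9.62, 9.56 and 9.7 in KO TM cells, against 8.05, 8.08 and 8.12 in KO DMSO cells, a difference of 1.54 ± 0.035. DNAJB11 rose by 1.47 and DNAJC10, a disulfide reductase, by 1.33. CLGN (calmegin), a lectin chaperone known from the testis, had values of 6.67, 6.23 and 6.82 in KO TM cells, against 3.9, 4.05 and 4.09 in KO DMSO cells, a difference of 2.56 ± 0.13 that was at least 1.8 against the median of all features. FKBP7, a prolyl isomerase, was the member that fell (-0.28, adjusted p = 0.0197). That call was lost in 4 alternatives, among them those without KO TM replicate 2, KO DMSO replicate 2 or KO DMSO replicate 3 (adjusted p 0.0584 to 0.112). HSP90B1 (GRP94) had no feature of its own and was not tested.

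Promoters of these genes were searched for the ER stress response element (ERSE), CCAAT and CCACG separated by any 9 bases, to which ATF6 binds together with NF-Y. RefSeq windows of 300 bases on GRCh38.p14, 250 before and 50 after each start, were matched by symbol for 15374 of the 22411 genes, and both strands were read. ERSE was found in 19 genes (0.124% of those with a window). Of these, 15 rose in KO TM cells, 0 fell and 4 did not pass, against 14.3% higher and 16.8% lower among all genes with a window. The 15 were ERO1B, HSPA5, FICD, CALR, CRELD2, PDIA6, TRIM5, SERP1, ALG12, CANX, SYNPO, ZNF17, EIF2A, FRG2 and XBP1, with SERP1 and EIF2A, as well as CRELD2 and ALG12, read from start sites close together on opposite strands. Each of the 15 held 1 site, which for CANX lay in 3 overlapping windows. A match describes letters in these windows and not binding. The 4 that did not pass, FRG2B, NLRP4, GLRA2 and TMEM120A, are not shown. The whole window of HSPA5 is shown because its promoter is the textbook case of this element. The sites of the 4 further ERSE genes with the largest rises are shown too, and so were picked by their values. The ERSE is in capitals (read on the opposite strand it starts with CGTGG and ends with ATTGG). In these sequences the spacer differs while the ends stay. They lie at chr9:125241294-125241593, minus strand for HSPA5, chr1:236282171-236282208, minus strand for ERO1B, chr12:108515111-108515153, plus strand for FICD, chr19:12938372-12938414, plus strand for CALR and chr22:49918542-49918584, plus strand for CRELD2.
HSPA5: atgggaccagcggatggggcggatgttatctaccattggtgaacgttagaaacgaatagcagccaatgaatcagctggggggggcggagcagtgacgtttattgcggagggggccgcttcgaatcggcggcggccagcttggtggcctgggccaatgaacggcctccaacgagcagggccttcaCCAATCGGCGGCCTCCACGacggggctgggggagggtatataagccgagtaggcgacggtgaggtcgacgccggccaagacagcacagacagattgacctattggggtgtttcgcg
ERO1B: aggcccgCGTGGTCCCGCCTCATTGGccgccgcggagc
FICD: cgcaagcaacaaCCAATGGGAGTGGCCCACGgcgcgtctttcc
CALR: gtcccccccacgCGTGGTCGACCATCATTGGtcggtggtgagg
CRELD2: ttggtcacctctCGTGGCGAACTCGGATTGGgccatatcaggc
The HSPA5 site began 66 bases before the start. CALR (calreticulin), FICD, which modifies HSPA5 with AMP, and CRELD2 were named here for these sites, after their values were known. CALR had values of 12.39, 12.36 and 12.35 in KO TM cells, against 11.37, 11.34 and 11.36 in KO DMSO cells, a difference of 1.01 ± 0.022. FICD rose by 1.06 and CRELD2 by 0.99.

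A second form, ERSE-II, ATTGG and CCACG separated by 1 base, was found in 17 genes (0.111%), of which 8 rose, 3 fell and 6 did not pass. The genes with the largest rise among them were HERPUD1, HYOU1, NUCB1, NAV2 and SDF2L1. HYOU1 held 2 sites, and the first of them, read from the far end, overlapped the element TGACGTGG described below. The sites of HERPUD1 (chr16:56932013-56932047, plus strand), HYOU1 (chr11:119057262-119057402, minus strand), NUCB1 (chr19:48900231-48900265, plus strand) and SDF2L1 (chr22:21642102-21642136, plus strand) are in capitals.
HERPUD1: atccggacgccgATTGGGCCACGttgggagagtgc
HYOU1: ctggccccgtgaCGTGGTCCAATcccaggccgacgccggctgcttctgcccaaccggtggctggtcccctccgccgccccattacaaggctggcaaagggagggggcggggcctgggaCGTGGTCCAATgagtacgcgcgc
NUCB1: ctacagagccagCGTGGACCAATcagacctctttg
SDF2L1: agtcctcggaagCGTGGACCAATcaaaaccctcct
NUCB1 (nucleobindin), a Golgi calcium-binding protein, had values of 9.16, 9.25 and 9.16 in KO TM cells, against 8.12, 8.2 and 8.14 in KO DMSO cells, a difference of 1.04 ± 0.036. SDF2L1, a partner of HSPA5 likewise named for its site, had values of 8.35, 8.63 and 8.35 in KO TM cells, against 7.68, 7.6 and 7.63 in KO DMSO cells, a difference of 0.81 ± 0.073.

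Disulfide chemistry and degradation followed. Of 24 disulfide isomerases and oxidases 15 rose, 3 fell and 6 did not pass (median 0.33). ERO1B, an oxidase that recharges the isomerases, had values of 7.63, 7.6 and 7.81 in KO TM cells, against 5.7, 5.74 and 5.75 in KO DMSO cells, a difference of 1.95 ± 0.061 (adjusted p = 1.13e-09). PDIA4 had values of 11.15, 11.1 and 11.15 in KO TM cells, against 9.38, 9.45 and 9.45 in KO DMSO cells, a difference of 1.71 ± 0.031. ERP44, which retains ERO1 in the early secretory pathway, rose by 1.39, PDIA3, the partner of calnexin and calreticulin, by 1.08, PDIA6 by 0.77 and P4HB by 0.61. The vitamin K epoxide reductase VKORC1 fell (-0.48), as did TXNDC12 (-0.19) and TMX1 (-0.14).

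Of 32 tested genes of ER-associated degradation (ERAD) 22 rose, 2 fell and 8 did not pass (median 0.27), and 8 rose by more than 2-fold. SYVN1 encodes HRD1, the ubiquitin ligase of the main ERAD channel, and had values of 9.62, 9.78 and 9.65 in KO TM cells, against 8.15, 8.2 and 8.2 in KO DMSO cells. The arrays did not overlap, and the difference was 1.5 ± 0.046 (2.83-fold, adjusted p = 1.03e-09). SEL1L, its membrane partner, had values of 10.94, 10.93 and 11.02 in KO TM cells, against 8.79, 8.88 and 8.89 in KO DMSO cells, a difference of 2.11 ± 0.043. HERPUD1, which assembles the HRD1 complex, had values of 11.27, 11.18 and 11.27 in KO TM cells, against 9.1, 9.11 and 9.11 in KO DMSO cells, a difference of 2.13 ± 0.032 (4.38-fold, adjusted p = 5.63e-12). DERL2, a channel component, rose by 1.23, the mannosidase-like EDEM1 by 1.19 and SELENOS, which recruits VCP, by 1.15. VCP, the cytosolic ATPase that pulls substrates out, rose by 0.15. ERLIN1 fell (-0.29), as did NPLOC4, a VCP cofactor, (-0.12), the call of NPLOC4 being lost without KO TM replicate 1 and without KO DMSO replicate 2 or 3 (adjusted p 0.0646 to 0.147). NME1 encodes the nucleoside diphosphate kinase and metastasis suppressor NM23-H1, which the study followed mainly as protein. The study also reported its suppression in a PCR array that set TUSC3 knockdown cells of another lung cancer line beside control cells. The difference given here is another one, TM minus DMSO within KO cells. Here NME1 had values of 5.76, 5.81 and 5.86 in KO TM cells, against 6.01, 6.06 and 6.08 in KO DMSO cells. The arrays did not overlap and the difference was -0.24 ± 0.039 (adjusted p = 0.000521). In control cells NME1 differed by 0.03 and was not called, and the interaction of genotype and TM was -0.27 ± 0.055 (limma, adjusted p = 0.012). Under DMSO, NME1 averaged 6.05 in KO and 5.97 in control cells, and under TM 5.81 in KO and 5.99 in control cells. Its KO and control levels were not compared by a test. NME2 had no feature of its own.

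Of 29 genes of translocation and signal peptide processing 20 rose and 1 fell (median 0.33). SEC11C, a catalytic subunit of signal peptidase, had values of 8.6, 8.38 and 8.59 in KO TM cells, against 7.15, 7.17 and 7.29 in KO DMSO cells, a difference of 1.32 ± 0.063. SEC63, the translocon's J-domain protein, rose by 1.0, SSR3 of the TRAP complex by 0.96, SEC61A1, the channel itself, by 0.89, SPCS2 by 0.89 and SSR1 by 0.78. Of 40 genes of ER-Golgi transport 32 rose and 2 fell (median 0.41). SEC24D, a cargo adaptor of COPII coats, had values of 8.14, 8.09 and 8.28 in KO TM cells, against 6.43, 6.52 and 6.58 in KO DMSO cells, a difference of 1.66 ± 0.05. The glycoprotein receptor LMAN1 rose by 0.94, the coatomer subunit COPA by 0.92, the collagen export factors MIA2 and MIA3 by 0.9 and 0.84, and SEC23B by 0.81. Another COPII adaptor, SEC24B, fell (-0.16), as did YIF1A (-0.26). The UPR element TGACGTGG, the site known for ATF6 and XBP1, was found on either strand in 8 of the 36 transport genes with a window (22.2%), against 1.06% of all genes with a window. Over all 163 genes that held it, 51 rose (31.3%) and 15 fell (9.2%). Of the 8 transport genes COPA, STX5, KDELR3, COPB1 and COPB2 rose, while SEC24A, SEC23A and SEC16A did not pass, and COPB2 held 2 sites.

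The OST and the steps before it are of interest here because TUSC3 is an OST subunit and TM acts on the same pathway. Of 9 tested OST genes 7 rose, 0 fell and 2 did not pass (median 0.47). MAGT1, the paralog of TUSC3 that takes the same place in the STT3B complex, had values of 10.26, 10.26 and 10.31 in KO TM cells, against 8.81, 8.76 and 8.77 in KO DMSO cells. The lowest KO TM array was above the highest KO DMSO array by more than the spread within either group, and the difference was 1.5 ± 0.035 (2.82-fold, adjusted p = 1.32e-10). STT3A, the catalytic subunit of the co-translational OST, had values of 11.19, 11.21 and 11.24 in KO TM cells, against 10.22, 10.26 and 10.25 in KO DMSO cells, a difference of 0.97 ± 0.022. STT3B, the catalytic subunit that pairs with MAGT1 or TUSC3, had values of 10.29, 10.19 and 10.35 in KO TM cells, against 9.7, 9.69 and 9.68 in KO DMSO cells, a difference of 0.58 ± 0.041. The shared subunits RPN1, RPN2 and DAD1 rose by 0.65, 0.47 and 0.17. KRTCAP2, a subunit of the STT3A complex, rose by 0.08 (adjusted p = 0.0444), a call lost in 11 of the alternatives, among them those without either KO TM replicate 1 or 2 and without any one KO DMSO array (adjusted p 0.0534 to 0.134). OST4 had values of 9.87, 9.91 and 9.78 in KO TM cells, against 9.92, 9.85 and 9.84 in KO DMSO cells (difference -0.02, adjusted p = 0.864). DDOST, OSTC and TMEM258 had no feature of their own.

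DPAGT1, the enzyme TM blocks, had values of 7.6, 7.73 and 7.62 in KO TM cells, against 7.22, 7.2 and 7.22 in KO DMSO cells. It rose by 0.44 ± 0.038 (adjusted p = 3.69e-06). Of 31 genes of dolichol-linked glycan synthesis and trimming 15 rose, 1 fell and 15 did not pass (median 0.10). The mannosyltransferase ALG2 rose by 0.79, the glucosylphosphoryldolichol synthase ALG5 by 0.78, ALG12 by 0.63, the Golgi mannosidase MAN1A2 by 0.63, NUS1 of the dolichol-making prenyltransferase by 0.6 and GMPPA by 0.56. Of 12 genes of the hexosamine pathway, which supplies the UDP-GlcNAc used for these glycans, 6 rose and 2 fell. GFPT1, its rate-limiting enzyme, had values of 10.5, 10.49 and 10.59 in KO TM cells, against 8.71, 8.77 and 8.81 in KO DMSO cells, a difference of 1.76 ± 0.039 (3.39-fold). OGT and OGA, which add and remove GlcNAc on cytosolic and nuclear proteins, rose by 0.67 and 0.45. Of 22 genes of ER calcium handling 15 rose, 9 without KO DMSO replicate 3, and 2 fell (median 0.17). NUCB2 had values of 8.77, 8.49 and 8.85 in KO TM cells, against 6.95, 6.78 and 6.89 in KO DMSO cells, a difference of 1.83 ± 0.086, and the calcium pump ATP2A2 rose by 0.4, while STC1 fell (-0.6).

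Most genes of amino acid supply rose. Of 26 tested genes of amino acid synthesis and transport 22 rose, 0 fell and 4 did not pass (median 0.59). ALDH1L2, a mitochondrial folate enzyme, had values of 8.21, 8.17 and 8.39 in KO TM cells, against 6.17, 6.3 and 6.28 in KO DMSO cells, a difference of 2.01 ± 0.071 (adjusted p = 2.82e-09). ASNS, asparagine synthetase, had values of 8.68, 8.51 and 8.71 in KO TM cells, against 7.6, 7.63 and 7.68 in KO DMSO cells, a difference of 0.99 ± 0.049. GOT1, the cytosolic aspartate aminotransferase, rose by 1.1, SESN2, an inhibitor of mTORC1, by 1.0, and SLC3A2 and SLC7A11, which together import cystine, by 0.96 and 0.91. Of 20 cytosolic tRNA synthetases 13 rose, 1 fell and 6 did not pass (median 0.32). WARS1 had values of 9.85, 9.85 and 9.96 in KO TM cells, against 8.43, 8.45 and 8.46 in KO DMSO cells, a difference of 1.44 ± 0.04. AARS1 had values of 10.53, 10.57 and 10.59 in KO TM cells, against 9.45, 9.59 and 9.54 in KO DMSO cells, a difference of 1.04 ± 0.042. SARS1, GARS1, IARS1 and CARS1 rose by 0.9, 0.77, 0.68 and 0.63. FARSB fell (-0.15, adjusted p = 0.0258), and this call was lost when any one KO array other than KO TM replicate 3 was left out (adjusted p up to 0.201 over the alternatives).

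The letters TTGCATCA, one form of the C/EBP-ATF response element (CARE) to which ATF4 binds with C/EBP partners, were found on either strand in 145 genes with a window (0.943%). They were found in 6 of the 17 tRNA synthetases with a window (35.3%) and in 3 of 20 amino acid genes (15%). Of all 145 genes 31 rose (21.4%) and 17 fell (11.7%), so most genes with these letters did not pass. The 6 synthetases and GOT1 and CHAC1 are shown, with the element in capitals, because it sits in the first bases around the start in several synthetases and farther upstream in the others. AARS1 (chr16:70289670-70289709, minus strand), IARS1 (chr9:92293687-92293726, minus strand), CARS1 (chr11:3057402-3057441, minus strand), MARS1 (chr12:57488048-57488087, plus strand), NARS1 (chr18:57621799-57621838, minus strand), TARS1 (chr5:33440951-33440990, plus strand), GOT1 (chr10:99430799-99430838, minus strand) and CHAC1 (chr15:40953246-40953285, plus strand) read:
AARS1: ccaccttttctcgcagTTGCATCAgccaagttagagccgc
IARS1: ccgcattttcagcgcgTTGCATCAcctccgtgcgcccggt
CARS1: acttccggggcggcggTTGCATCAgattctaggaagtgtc
MARS1: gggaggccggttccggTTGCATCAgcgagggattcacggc
NARS1: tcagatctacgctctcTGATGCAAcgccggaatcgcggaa
TARS1: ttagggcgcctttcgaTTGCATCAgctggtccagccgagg
GOT1: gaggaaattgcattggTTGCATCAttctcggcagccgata
CHAC1: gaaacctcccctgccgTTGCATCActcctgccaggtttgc
The element began 187 bases before the start in AARS1, 13 in IARS1, 2 in CARS1 and 4 in MARS1. The last 3 synthetases were named for their sites, after their values were known. MARS1 rose by 0.6, NARS1 by 0.41 and TARS1 by 0.27, the smallest differences of the 6 synthetases.

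**Figure D3:**
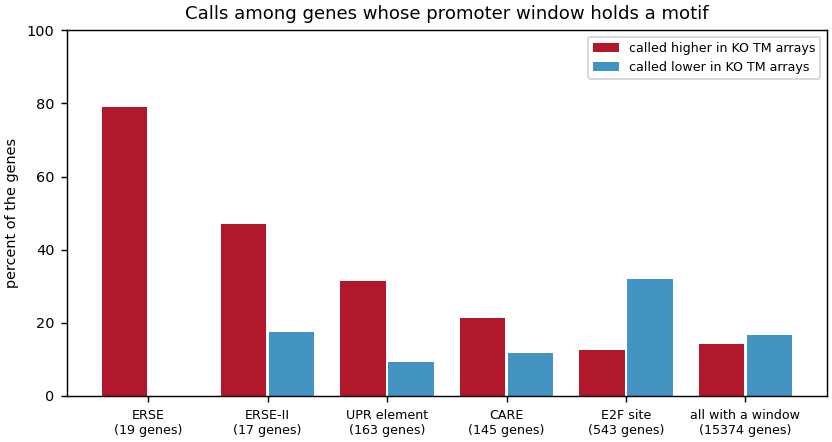
Percent of genes called higher (red) and lower (blue) in KO TM against KO DMSO arrays, among genes whose 300-base promoter window holds each motif and among all 15374 genes with a window. Of the 19 ERSE genes 78.9% rose and none fell, whereas of the 543 genes with an E2F site 12.5% rose and 31.9% fell.

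Of 28 tested regulators of cell death 8 rose (28.6%), 4 fell (14.3%) and 16 did not pass. CHAC1, a glutathione-degrading target of ATF4, had values of 7.48, 7.74 and 7.6 in KO TM cells, against 6.56, 6.55 and 6.45 in KO DMSO cells, a difference of 1.09 ± 0.068. TNFRSF10B, the death receptor DR5, rose by 0.72, PMAIP1 (NOXA) by 0.52 and the mitophagy receptor BNIP3L by 0.76, while BCL2L11 (BIM) fell (-0.31), as did CASP2 (-0.33) and BID (-0.26). Of 37 autophagy and lysosome genes 19 rose and 4 fell (median 0.17). WIPI1, which binds PI3P on forming autophagosomes, had values of 9.21, 9.2 and 9.33 in KO TM cells, against 6.67, 6.66 and 6.69 in KO DMSO cells, a difference of 2.57 ± 0.059 (5.95-fold). MAP1LC3B (LC3B) had values of 8.79, 8.72 and 8.91 in KO TM cells, against 7.7, 7.72 and 7.86 in KO DMSO cells, a difference of 1.05 ± 0.052. GABARAPL1 rose by 1.0, ATG13 by 0.83, and the cargo receptors TAX1BP1 and NBR1 by 0.66 and 0.66. The lysosomal proteases CTSB and CTSA fell (-0.24 and -0.28).

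Several of the largest rises lay outside the ER. NIBAN1, an eIF2alpha-linked stress gene, had values of 7.66, 7.6 and 7.78 in KO TM cells, against 3.86, 3.87 and 3.93 in KO DMSO cells. Its KO DMSO arrays were below the median of all features, and the difference of 3.79 ± 0.054 was at least 2.91 against that level. TXNIP, the thioredoxin inhibitor that limits glucose uptake, had values of 7.51, 7.44 and 7.38 in KO TM cells, against 4.46, 4.46 and 4.52 in KO DMSO cells, a difference of 2.97 ± 0.053 that was at least 2.67. Its relative ARRDC4 had values of 6.72, 6.76 and 6.77 in KO TM cells, against 4.51, 4.54 and 4.58 in KO DMSO cells, a difference of 2.21 ± 0.058 that was at least 1.98. IGFBP1, a secreted binder of insulin-like growth factors, had values of 9.26, 9.31 and 9.29 in KO TM cells, against 6.32, 6.48 and 6.49 in KO DMSO cells, a difference of 2.86 ± 0.052 (7.25-fold). IL1A, the interleukin-1 alpha cytokine, had values of 5.64, 5.41 and 5.74 in KO TM cells, against 3.28, 3.49 and 3.59 in KO DMSO cells. Its difference of 2.14 ± 0.091 was at least 0.82 against the median of all features. SLFN5 rose by 2.35 and LURAP1L by 1.95. Among secreted factors known to follow stress, EREG rose by 1.13, STC2 by 0.93, GDF15 by 0.77 and VEGFA by 0.59, in a list of 23 of which 9 rose and 2 fell. EGFR, the receptor of EREG, had values of 9.46, 9.49 and 9.6 in KO TM cells, against 8.18, 8.28 and 8.26 in KO DMSO cells, a difference of 1.28 ± 0.04.

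Cell cycle genes fell almost without exception. Of 38 tested genes of DNA replication and nucleotide synthesis 37 fell, 0 rose and 1 did not pass, with a median of -1.06 and 20 genes past 2-fold. MCM10, which activates the replicative helicase, had values of 6.11, 6.1 and 6.26 in KO TM cells, against 8.12, 8.15 and 8.19 in KO DMSO cells. The 3 KO TM arrays lay below the 3 KO DMSO arrays, a difference of -2.0 ± 0.051 (adjusted p = 3.23e-10). DTL, the adaptor of a ubiquitin ligase that prevents re-replication, had values of 6.72, 6.78 and 6.94 in KO TM cells, against 8.54, 8.59 and 8.62 in KO DMSO cells, a difference of -1.77 ± 0.054. MCM6, a helicase subunit, had values of 6.12, 6.11 and 6.35 in KO TM cells, against 7.88, 7.88 and 7.95 in KO DMSO cells, a difference of -1.71 ± 0.058. PCNA, the sliding clamp, had values of 7.83, 7.74 and 7.89 in KO TM cells, against 9.37, 9.33 and 9.34 in KO DMSO cells, a difference of -1.53 ± 0.045. GINS2 of the helicase fell (-1.69), as did RRM2, a ribonucleotide reductase subunit, (-1.43). The DNA repair nuclease EXO1 fell (-1.74), as did the checkpoint mediator CLSPN (-1.75), the E2F co-activator ATAD2 (-1.75), and FAM111B (-2.29). All 39 tested genes of G2-M and mitosis fell, with a median of -0.84 and 11 past 2-fold. The proliferation marker MKI67 fell (-1.34), as did the mitotic motor KIF11 (-1.29), ANLN, needed for cytokinesis, (-1.27), cyclin A2 (CCNA2) (-1.24) and CDK1 (-1.22). In bulk RNA, fewer cycling cells and less of these mRNAs per cell cannot be told apart.

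The letters TTTCCCGC or TTTGGCGC, forms of the E2F site and searched for after the fall of these genes was known, were found in 20 of the 34 replication genes with a window (58.8%) and in 3.53% of all genes with a window. Among the genes that fell by more than 2-fold the share was 21.7%, and among those that rose by more than 2-fold it was 4.04%. They are shown in capitals for MCM6, with 2 sites (chr2:135876514-135876607, minus strand), PCNA (chr20:5126662-5126693, minus strand), TYMS (chr18:657602-657633, plus strand), GINS2 (chr16:85688966-85688997, minus strand) and DTL (chr1:212035728-212035759, plus strand).
MCM6: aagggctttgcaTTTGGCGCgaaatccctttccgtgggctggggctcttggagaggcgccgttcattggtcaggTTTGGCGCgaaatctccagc
PCNA: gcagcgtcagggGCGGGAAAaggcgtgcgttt
TYMS: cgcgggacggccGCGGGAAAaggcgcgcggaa
GINS2: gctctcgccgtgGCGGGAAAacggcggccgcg
DTL: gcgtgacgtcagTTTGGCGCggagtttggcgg
TYMS, thymidylate synthase, named for its site, had values of 7.45, 7.5 and 7.64 in KO TM cells, against 8.85, 8.86 and 8.95 in KO DMSO cells, a difference of -1.35 ± 0.046.

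Cytosolic protein quality control did not rise with the ER genes. Of 23 tested heat shock chaperones 14 fell and 1 rose (median -0.30). HSPB1, a small heat shock protein, had values of 8.65, 8.68 and 8.65 in KO TM cells, against 9.38, 9.41 and 9.42 in KO DMSO cells, a difference of -0.75 ± 0.036. HSPA1A, the inducible cytosolic Hsp70, whose near-identical copy HSPA1B the probes may also read, had values of 8.2, 8.34 and 8.3 in KO TM cells, against 8.73, 8.81 and 8.83 in KO DMSO cells, a difference of -0.51 ± 0.051. HSP90AA1 fell (-0.56), as did HSPH1 (-0.52), DNAJB1 (-0.4) and the Hsp90 co-chaperone FKBP4 (-0.62). Of 33 proteasome subunits 16 fell, 3 rose and 14 did not pass, with a median of -0.12 and the largest fall -0.41 for PSMD1. Mitochondrial chaperones and proteases split, with 5 of 17 higher and 5 lower, the lower count being 3 without KO TM replicate 1 or without KO DMSO replicate 3. The protease LONP1 rose by 0.51 and HSPA9 by 0.47, while HSPE1 fell (-0.63). Ribosome biogenesis factors fell in 22 of 36 genes and rose in 1 (median -0.15), led by TCOF1, which drives rRNA transcription, at -0.46 ± 0.034. Cytosolic ribosomal protein genes rose in 15 of 31 and fell in 1, with a median of 0.08, and rose in 9 without KO DMSO replicate 2. The translation elongation factor EEF2 rose by 0.4.

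Lipid genes fell more often than they rose. Of 23 genes of fatty acid and phospholipid synthesis 16 fell and 1 rose (median -0.18). SCD, the stearoyl-CoA desaturase, had values of 9.49, 9.56 and 9.53 in KO TM cells, against 10.52, 10.52 and 10.56 in KO DMSO cells, a difference of -1.01 ± 0.03. FASN, fatty acid synthase, had values of 7.59, 7.69 and 7.63 in KO TM cells, against 8.52, 8.67 and 8.61 in KO DMSO cells, a difference of -0.96 ± 0.04. FADS2 and ACACA fell (-0.75 and -0.75). Of 23 cholesterol genes 10 fell and 4 rose. ACAT2 fell (-0.88), as did DHCR7 (-0.81), and the regulators SREBF1 and SREBF2 (-0.51 and -0.28), while HSD17B7, SC5D and STARD4, a cholesterol carrier, rose by 0.74, 0.68 and 0.65. Of 31 genes of glycolysis and hypoxia 17 fell and 7 rose. PDK4, which inhibits pyruvate dehydrogenase, had values of 6.06, 6.1 and 6.19 in KO TM cells, against 8.47, 8.43 and 8.49 in KO DMSO cells. It fell by more than any other gene, -2.35 ± 0.039 (adjusted p = 1.23e-11). The glucose transporter SLC2A3 fell (-1.01), while NDRG1 rose by 1.23. Of 31 NRF2 targets 15 rose and 6 fell. The glutathione synthesis genes GCLC and GCLM rose by 0.7 and 0.38, NFE2L2 itself by 0.45, and GPX2 fell (-0.71).

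Signalling, adhesion and surface genes moved both ways. Of 34 genes of chemokines, cytokines and NF-kappaB feedback 15 fell and 6 rose. The prostaglandin synthase PTGS2 fell (-1.35), as did CCL2 (-1.2) and CXCL1 (-0.91). Of 37 interferon-stimulated genes 8 rose and 9 fell, with 10 and 9 under the replicate block and 11 and 8 without KO TM replicate 2. IFITM2 fell (-1.35), as did IFITM3 (-0.87). Of 29 immediate early genes 9 rose and 10 fell, with 11 and 10 after quantile normalization again. EGR1 had values of 5.33, 5.81 and 6.63 in KO TM cells, against 7.44, 7.53 and 7.52 in KO DMSO cells, widely spread within KO TM cells, and its difference of -1.57 ± 0.3 had the largest SE of the genes named here. DUSP1 and DUSP5, phosphatases of MAP kinases, rose by 0.76 and 0.77. Of 29 receptor tyrosine kinases and ligands 11 rose and 6 fell, with AXL at 0.58 and the ephrin receptor EPHA7 at -1.01. Integrins and laminin receptors counted 7 higher and 6 lower of 20, with 5 and 6 without KO TM replicate 3. Matrix genes counted 9 higher and 8 lower of 34, with 8 and 9 without KO DMSO replicate 1. CD44, the hyaluronan receptor, fell (-1.02), as did ITGB5 (-0.42), fibronectin (FN1) (-0.97) and the TGF-beta target TGFBI (-0.73). The urokinase PLAU rose by 0.61.

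Of 31 epithelial genes 9 rose and 8 fell, with 8 and 9 without KO DMSO replicate 2, and of 24 mesenchymal genes 3 rose and 7 fell. ESRP1, an epithelial splicing factor, had values of 7.59, 7.42 and 7.7 in KO TM cells, against 5.61, 5.67 and 5.68 in KO DMSO cells, a difference of 1.92 ± 0.069. The tight junction gene OCLN rose by 1.47 and CLDN1 by 0.84, whereas CLDN2 had values of 6.0, 6.06 and 5.81 in KO TM cells, against 7.68, 7.81 and 7.89 in KO DMSO cells and fell (-1.84 ± 0.071). E-cadherin (CDH1) rose by 0.52 and DSG2 by 0.57, while DSP fell (-0.35). Among the mesenchymal genes CDH6, a cadherin, fell (-1.66), as did TGFB1 (-0.6) and TPM2 (-0.58), while CDH2 (N-cadherin) rose by 0.36, ZEB1 by 0.45 and VIM by 0.14. DKK1, a secreted inhibitor of Wnt signalling, had values of 7.2, 7.22 and 7.4 in KO TM cells, against 9.07, 9.05 and 9.06 in KO DMSO cells, a difference of -1.79 ± 0.048. IQGAP2 and H2BC14, a histone H2B gene, fell (-1.66 and -1.68), and so did ASB4 (-1.88), which was at least -1.18 in size against the median of all features. AGR2, an ER isomerase of mucin-making cells, rose by 1.22 and MUC5B fell (-0.74). Of 19 housekeeping genes 11 fell and 3 rose, the largest fall being -0.86 for POLR2A, the large subunit of RNA polymerase II.

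The response of control cells was set beside that of KO cells, on arrays that the 2 comparisons do not share. In control cells TM raised 2518 genes (11.2%) and lowered 3046 (13.6%). Differences of the 22411 genes correlated between KO and control cells with a Pearson r of 0.786, a description across genes, which are not independent replicates. Of the genes that rose in KO cells 58.3% rose in control cells, and these were 64.9% of the genes that rose in control cells. For falls the shares were 62.1% of the KO calls and 68.1% of the control calls. Of the 122 genes that rose by more than 2-fold in KO cells 118 rose in control cells, 1 fell and 3 did not pass, and all 118 that fell by more than 2-fold in KO cells fell in control cells. The interaction of genotype and TM, the KO response minus the control response, was above 0 for 936 genes (4.18%) and below 0 for 837 genes (3.73%). It was larger than 1 on the log2 scale in 23 genes above 0 and in 2 below.

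**Figure D4:**
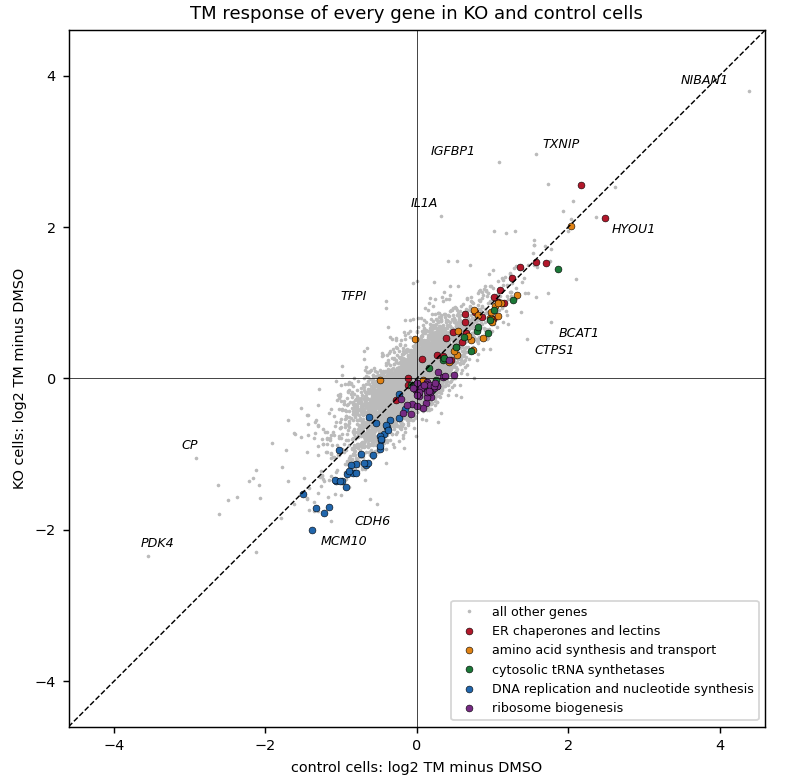
Log2 difference, TM minus DMSO, of each gene in KO cells (vertical) and in control cells (horizontal), with 5 lists in colour and the dashed line marking equal responses. ER chaperones lie near the line, most replication genes lie below it, further from 0 in KO cells, and IGFBP1, TXNIP, IL1A, CP and PDK4 lie above it.

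Most UPR sensors, chaperones, ERAD and OST genes had no called interaction. An interaction above 0 was called for 2 of 21 UPR sensors and factors, 1 of 28 chaperones, 6 of 32 ERAD genes (18.8%) and 0 of 9 OST genes, against 4.18% of all genes, and one below 0 for 1, 4, 1 and 1 of them, against 3.73%. For SYVN1 it was -0.05 ± 0.064 (adjusted p = 0.72), for ATF6 0.04 ± 0.048 (adjusted p = 0.72) and for MAGT1 0.03 ± 0.049 (adjusted p = 0.82). For ERN1 it was 0.2 ± 0.069 (adjusted p = 0.11) and for EIF2AK3 0.09 ± 0.086 (adjusted p = 0.64). A p that misses the threshold does not show equal responses, and the SE gives how far apart they could be. HSPA5 rose by 1.52 in KO cells and by 1.7 in control cells, an interaction of -0.18 ± 0.047 (adjusted p = 0.04). HYOU1 rose by 2.12 and 2.48, an interaction of -0.36 ± 0.044 (adjusted p = 0.00051), and HERPUD1 by 2.13 and 2.36, an interaction of -0.23 ± 0.045 (adjusted p = 0.0086). For these 3 genes the TM levels of KO and control cells were close or higher in KO cells, and their DMSO levels were higher in KO cells. HYOU1 averaged 10.93 in KO TM and 8.81 in KO DMSO cells, with 10.87, 10.87 and 10.83 in control TM cells, against 8.34, 8.35 and 8.43 in control DMSO cells. TRIB3 also had a negative interaction (-0.26), while CREB3L2 (0.28) and CREB3L1 (0.36) had positive ones, and CREB3L1 was at -0.07 in KO cells, where it was not called, and at -0.43 in control cells, where it fell. ERO1B rose by 1.95 in KO cells and 1.3 in control cells, an interaction of 0.65 ± 0.086 (adjusted p = 0.0009).

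Counts of interactions by list, beside the 4.18% above and 3.73% below 0 over all genes, differed in direction. Among replication genes 26 of 38 had an interaction below 0 and 0 above, with medians of the TM response of -1.06 in KO and -0.69 in control cells. MCM10 fell in KO cells (-2.0) and in control cells (-1.39), an interaction of -0.61 ± 0.072 (adjusted p = 0.00044). PCNA, by contrast, fell in KO cells (-1.53) and in control cells (-1.51, interaction -0.02, adjusted p = 0.91). Among G2-M genes 12 of 39 had an interaction below 0 and 0 above. Among ribosome biogenesis genes 25 of 36 were below 0 and 0 above. In KO cells 22 of these fell and 1 rose, while in control cells 3 fell and 15 rose. Among tRNA synthetases 8 of 20 were below 0 and 0 above, and among amino acid genes 8 of 26 below and 2 above. BCAT1, a branched-chain aminotransferase, had values of 5.77, 5.71 and 5.92 in KO TM cells, against 5.0, 5.11 and 5.07 in KO DMSO cells, and 7.53, 7.53 and 7.54 in control TM cells, against 5.79, 5.67 and 5.83 in control DMSO cells. It rose by 0.74 in KO and 1.77 in control cells, an interaction of -1.03 ± 0.081. Lists with at least 5 interactions above 0 and more above than below were autophagy (8 of 37 above, 2 below), ER-Golgi transport (7 of 40 above, 0 below), ERAD (6 of 32 above, 1 below), ER calcium (6 of 22 above, 0 below), NRF2 targets (7 of 31 above, 1 below), interferon-stimulated genes (9 of 37 above, 1 below), integrins (5 of 20 above, 1 below), epithelial genes (9 of 31 above, 1 below), matrix genes (6 of 34 above, 4 below) and glycolysis genes (5 of 31 above, 3 below).

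The largest single interactions above 0 were mostly of 2 kinds. In one, the rise was larger in KO cells. IGFBP1 rose by 2.86 in KO and 1.08 in control cells (interaction 1.77 ± 0.073, adjusted p = 5.9e-07), with 8.08, 8.09 and 7.95 in control TM cells, against 6.92, 6.92 and 7.02 in control DMSO cells. TXNIP rose by 2.97 in KO cells and 1.58 in control cells, at least 2.67 and 1.17 against the median of all features (interaction 1.39 ± 0.076, adjusted p = 3.5e-06). IL1A rose by 2.14 in KO cells, at least 0.82 against the median of all features, and had a fitted rise of 0.32 in control cells, where both groups lay below it (interaction 1.83 ± 0.13, adjusted p = 1.4e-05), and its 3 control TM arrays stayed at 3.72 to 3.82, below every KO TM array and below the median of all features. FER1L6 rose by 1.29 in KO cells, at least 1.0 against the median of all features (interaction 1.29 ± 0.053), and both of its control groups lay below that median, so a change there is not measured. SLITRK6 was below the median of all features in every group (interaction 1.31). In the other kind, the fall was smaller in KO cells. CP (ceruloplasmin), the plasma copper oxidase, had values of 5.84, 5.81 and 5.7 in KO TM cells, against 6.83, 6.78 and 6.91 in KO DMSO cells, and 5.21, 5.2 and 5.24 in control TM cells, against 8.19, 8.0 and 8.19 in control DMSO cells. It fell in KO cells (-1.06) and in control cells (-2.91, interaction 1.85 ± 0.08, adjusted p = 5.9e-07), and its DMSO level was lower in KO cells. APOH, a plasma apolipoprotein, fell in KO cells (-1.41) and in control cells (-2.63, interaction 1.22). PDK4 fell in KO cells (-2.35) and in control cells (-3.55, interaction 1.2 ± 0.055, adjusted p = 7.5e-07).

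Responses went in opposite directions for 113 genes called in both, 74 higher in KO and lower in control cells and 39 the reverse. Far more went the same way, with 1635 genes higher in both and 2074 lower in both. TFPI, the inhibitor of tissue factor, had values of 7.98, 7.94 and 8.11 in KO TM cells, against 7.08, 7.06 and 7.09 in KO DMSO cells, and 7.77, 7.74 and 7.79 in control TM cells, against 8.31, 8.04 and 8.18 in control DMSO cells. It rose by 0.94 in KO cells and fell (-0.41) in control cells (interaction 1.35 ± 0.085, adjusted p = 6.2e-06). ANKRD30A rose by 1.03 in KO cells, at least 0.37 against the median of all features, and fell (-0.41) in control cells (interaction 1.44 ± 0.18). NAV3, a microtubule-binding protein, fell (-0.45) in KO cells, against a rise of 0.32 in control cells (interaction -0.78 ± 0.069).

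Interactions below 0 were fewer, and the 10 with the largest size were smaller than the 10 above 0. CDH6 fell in KO cells (-1.66). Both of its control groups lay below the median of all features, at 4.08 in control TM and 4.6 in control DMSO cells, so its fitted control difference (-0.52, interaction -1.14 ± 0.072, adjusted p = 6.2e-06) and its rank among the interactions rest on values not measured above that level. Its KO DMSO arrays, at 6.47 to 6.58, lay above all others. ITIH2, a plasma hyaluronan-binding protein, fell in KO cells (-1.59) and in control cells (-0.62, interaction -0.98 ± 0.086), where control TM cells were below the median of all features and the fall was at least 0.31 in size. CTPS1, CTP synthase, had values of 8.27, 8.25 and 8.37 in KO TM cells, against 7.74, 7.77 and 7.8 in KO DMSO cells, and 9.23, 9.26 and 9.27 in control TM cells, against 7.78, 7.77 and 7.83 in control DMSO cells. It rose by 0.53 in KO and 1.46 in control cells (interaction -0.93 ± 0.05, adjusted p = 3.5e-06), with DMSO levels that overlapped. RAB39B rose by 1.31 in KO cells and 2.11 in control cells (interaction -0.8 ± 0.15), at least 0.89 and 1.7 against the median of all features, below which both DMSO groups lay. GLIPR1 fell (-0.76) in KO cells, with -0.01 in control cells (interaction -0.76 ± 0.1). RNA5SP340 (-0.86) and MIR181A2 (-0.83) were below the median of all features in every group, and their interaction calls were lost in 6 and 12 of the alternatives.

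**Figure D5:**
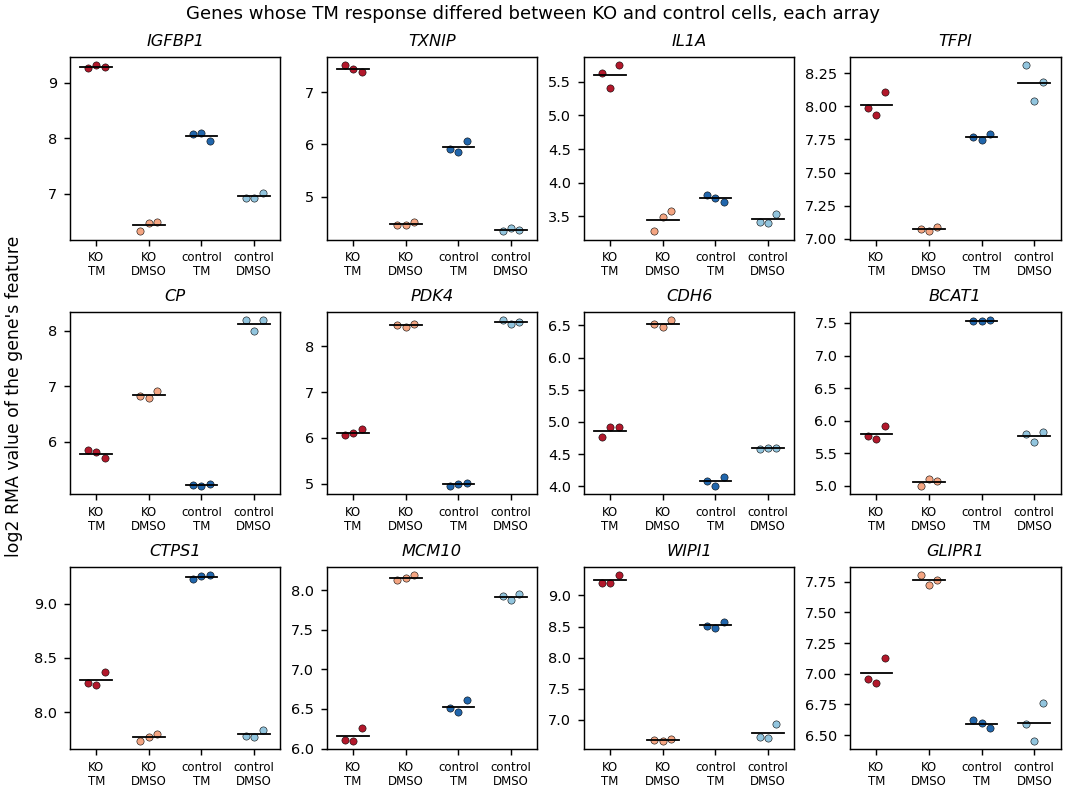
Log2 RMA values on each array (points) and group means (lines) of 12 genes with a called interaction, with KO TM, KO DMSO, control TM and control DMSO cells from left to right and a separate axis per gene that does not start at 0. IGFBP1, TXNIP and IL1A are highest in KO TM arrays, CP and PDK4 fall further in control cells, and CDH6 and GLIPR1 are highest in KO DMSO arrays.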

How the data were processed

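RNA of A549 cells was hybridised to 12 one-colour GeneChip Human Transcriptome Array 2.0 arrays, 3 a group. The log2 values deposited by the authors are RMA estimates per feature, that is, background-corrected, quantile-normalized and summarised over probes. RMA is named in the submitters' processing notes, and for its version and the build of its annotation nothing was stated in the sources at hand. RMA compresses differences of dim features. Genes came from the platform table, with symbols updated through RefSeq (306 changed). Features with several symbols (1543) or none (45199) were not analysed. Array medians were 4.73 to 4.80.

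TM and DMSO arrays were compared in limma 3.58.1 (R 4.3.3) with lmFit and eBayes (variance trend, two-sided) over all 12 arrays, with Benjamini-Hochberg adjustment over 22411 genes and calls at 0.05. The procedure was tested on simulated data, with 50 genes changed at each of several log2 sizes. It recovered 28 of them at 0.25, 39 at 0.5 and all 50 at 1.0 and at 2.0. Of 22211 unchanged genes 13 were called. In that setting recovery of differences near 0.25 was incomplete. The simulation changed far fewer genes than the 6144 called in KO cells and used independent noise. Its recovered shares therefore need not hold for these data. The named genes were the 15 largest called differences each way without overlap of arrays, the 10 largest interactions each way, up to 6 called members of a list in its larger direction and 3 in the other, all genes of the UPR factor and OST lists, DPAGT1 and genes the study followed. Genes outside this rule were named for their promoter sites or after their values were seen, as stated there. Of 1153 distinct genes in 40 lists, written from general knowledge, 1022 were tested. Members and lists were chosen with earlier results of these data known.

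As alternatives, arrays were quantile-normalized once more, the variance trend was dropped, KO arrays were fitted alone, the replicate number entered as a block, several features of a gene were averaged, dim genes were removed, the t-test of the methods was run and each array was left out. Promoters were RefSeq windows on GRCh38.p14, read in Python 3.11.15.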

Additional observations from a re-analysis of the deposited data

Results flagged for a closer look

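The interaction of genotype and TM passed the test for 1773 genes, of which the 20 with the largest values and those among the 30 largest KO responses are given here because the response of KO cells differed from that of control cells by the test of the difference itself (limma, adjusted p). All KO arrays are 1 clone, and clone and genotype cannot be told apart. Above 0 were CP (1.85), IL1A (1.83), IGFBP1 (1.77), ANKRD30A (1.44), TXNIP (1.39), TFPI (1.35), SLITRK6 (1.31), FER1L6 (1.29), APOH (1.22) and PDK4 (1.2). Below 0 were CDH6 (-1.14), BCAT1 (-1.03), ITIH2 (-0.98), CTPS1 (-0.93), RNA5SP340 (-0.86), MIR181A2 (-0.83), RAB39B (-0.8), NAV3 (-0.78), GLIPR1 (-0.76) and ASB4 (-0.75). For ANKRD30A, ASB4, CDH6, FER1L6, IL1A, ITIH2, MIR181A2, NIBAN1, RAB39B, RNA5SP340, SLITRK6 and TXNIP 1 or more of the 4 group means lay under the median over features, and the size of the interaction is not exact there. Among the largest KO rises, the interaction was above 0 for WIPI1 (0.84), ERO1B (0.65) and SLFN5 (0.29) and below 0 for NIBAN1 (-0.6), HYOU1 (-0.36) and HERPUD1 (-0.23). Among the largest KO falls, it was above 0 for DKK1 (0.82), whose fall was smaller in KO cells, and below 0 for MCM10 (-0.61), DTL (-0.54), GINS2 (-0.53), H2BC14 (-0.52), CLSPN (-0.44) and MCM6 (-0.37), whose falls were larger in KO cells.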

How the results depend on the processing

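With the t-test of the methods and Benjamini-Hochberg adjustment, 1691 genes were higher and 2039 lower under TM in KO cells, against 2806 and 3338 with limma, and its count at an unadjusted p under 0.05 was 6406. The other alternatives stayed within 1.5 times for the counts of genes higher under TM, lower under TM, changed by more than 2-fold and with an interaction. With 1 array left out at a time these were 2327 to 2862 higher, 2765 to 3371 lower, 234 to 245 changed by more than 2-fold and 1231 to 2141 with an interaction. Of 80 list counts (higher and lower in 40 lists) 19 moved by over 1.5 times at least once with 1 array left out, 3 of them from a count of 5 or more: ER calcium genes higher (15, and 9 without KO DMSO replicate 3), ribosomal proteins higher (15, and 9 without KO DMSO replicate 2) and mitochondrial chaperones lower (5, and 3 without KO TM replicate 1 or KO DMSO replicate 3). Quantile normalization again gave 3075 higher and 3082 lower, so that 49.9% of calls were higher, against 45.7%. A fit with the replicate block gave 3058 higher and 3626 lower. Deviations from the group means of same-numbered TM and DMSO arrays correlated over genes at 0.174, 0.093 and 0.282 in KO cells. In control cells they correlated at -0.0646, -0.0134 and 0.199. Whether the numbers mark pairs cannot be told from these values, and the main fit used no pairs. Of 338 called named genes none turned direction in the alternatives run, while 38 lost the call at least once under another setting and 22 with 1 array left out. The cause was not tested. Among genes without a call, OST4 turned to 0.0157 with quantile normalization again and ranged between -0.0433 and 0.0238 with 1 array left out, and TUSC3 ranged between -0.00908 and 0.127. In 6531 genes every group mean lay below the median of all features, and no bound is given for their changes. The 3 arrays a group limit the precision of small differences.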

Other observations

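Other gene families, taken by symbol after their values were known, moved mostly one way in KO cells. Of 39 clustered histone genes 28 fell and 1 rose (median -0.53), and in control cells 26 fell and 0 rose. Of 25 tubulins 15 fell and 0 rose (median -0.31), of 14 metallothioneins, which bind zinc and copper, 10 fell and 0 rose (median -0.30), and of 44 subunits of respiratory complex I 21 fell and 3 rose (median -0.14). Mitochondrial ribosomal protein genes fell in 38 of 77 and rose in 5 in KO cells, against 18 and 5 in control cells. Their interaction of genotype and TM was called below 0 in 4 (5.19%) and above 0 in 1 (1.3%). Over all genes these shares were 3.73% and 4.18%, so the counts do not show a different response. With quantile normalization again each of these families still had more falls than rises.

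Olfactory receptor genes, which are dim on these arrays (median level 3.05 in KO TM and 2.98 in KO DMSO cells), had a median difference of 0.07 in KO and 0.10 in control cells. Of 394 tested, 20 rose and 0 fell in KO cells, and 15 rose and 1 fell with quantile normalization again, a median of 0.04. Differences of that size in other dim genes are to be read beside these values, and their part in small rises was not tested.

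Among genes called in opposite directions, chosen here after their values were seen, RDH10, a retinol dehydrogenase, rose by 0.68 in KO cells and fell (-0.38) in control cells. PPARGC1A, a co-activator of mitochondrial genes, rose by 0.52 in KO cells and fell (-0.33) in control cells. TFF1, a secreted trefoil peptide, rose by 0.36 in KO cells and fell (-0.7) in control cells. FLRT3, an adhesion protein, rose by 0.41 in KO cells and fell (-0.66) in control cells.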
